A study of Mus musculus with 36 samples.

Results

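CCM (Core Circadian Modulator) is a small molecule that binds the PASB domain of BMAL1, the clock transcription factor, and the data below describe gene expression in macrophages that received it together with an inflammatory stimulus. Bone-marrow derived macrophages (BMDMs) of wild-type (WT) C57BL/6 mice received 100 nM LPS in DMSO or 100 nM LPS with 100 µM CCM for 6 h, with 3 libraries in each group. These 6 of the 36 libraries of the series were assigned to their groups by their labels. The other groups used here are WT BMDMs with DMSO vehicle or with 100 µM CCM and no LPS (3 libraries each), and Bmal1-KO BMDMs with LPS or with LPS and CCM (6 each). All groups carry floxed Bmal1 alleles. The KO cells in addition carry Cre under the myeloid LysM promoter, so that deletion is limited to cells in which that promoter had been active, and the WT controls are littermates without Cre. The mice were adult females, matched for age between genotypes. Marrow was grown with MCSF for 7 days before treatment, and polyadenylated RNA was sequenced as paired ends.

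LPS, from the outer membrane of Gram-negative bacteria, is sensed by TLR4 with its partners MD-2 and CD14. The adaptor MyD88 leads to NF-kB and AP-1 and to early cytokines, whereas TRIF leads to IRF3 and interferon-beta, which acts back on the cell through its receptor and STAT and IRF factors to induce antiviral genes, guanylate-binding proteins and further chemokines. Macrophages use these proteins to recruit leukocytes, to instruct T cells and to kill what they have engulfed.

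The 6 libraries held between 18043196 and 28137892 read pairs counted on genes, within the range of the whole series (13469262 to 28288923). No 2 libraries of a group were alike within counting noise (chi-square per degree of freedom 6.12 to 10.2), and each was counted as 1 replicate. Levels are given as CPM, read counts relative to the library size after TMM scaling, and effects as log2 fold changes of LPS+CCM over LPS. A gene is referred to as called, and as having risen or fallen, at an adjusted p (Benjamini-Hochberg) of 0.05 or less in edgeR's quasi-likelihood test. The 12 macrophage markers (Lyz2, Adgre1, Csf1r and others) summed to 18949-19369 CPM with LPS and 19196-19742 CPM with LPS+CCM. Of the 12, 2 rose, among them Csf1r (0.27), and 3 fell, Fcgr1 (-0.31), Mertk (-0.21) and C1qb (-0.20). Of the other cell types examined, fibroblast markers (mostly Col1a1 and Col1a2) summed to 514-734 and 602-697 CPM, neutrophil markers to 393-434 and 332-399 CPM, and osteoclast markers to 476-547 and 491-584 CPM in the same order, and of these S100a9 (-0.28) and Dcstamp (-0.42) fell. T cell markers lay at 16.9-20.5 and 18.4-20.1 CPM, mast cell and basophil markers at 10.8-11.4 and 4.44-15.2 CPM (Mcpt4 and Tpsb2 at 0 in all 6 libraries), and B cell markers at 3.91-4.31 and 3.38-4.22 CPM. Erythroid markers lay at 1.78-3.31 and 1.47-3.18 CPM and NK cell markers at 0.354-0.478 and 0.209-0.533 CPM. Dendritic cell markers summed to 5.15-5.39 CPM with LPS and 2.57-3.28 CPM with LPS+CCM, ranges that did not overlap. Of these 6 genes, 3 were too low to be tested, and Xcr1 (-0.95, adjusted p = 0.0579), Clec9a (-0.94, adjusted p = 0.128) and Zbtb46 (-0.22, adjusted p = 0.735) were not called. The part of these other cells in the results was not tested. In bulk RNA, fewer cells of a type and less RNA per cell cannot be told apart.

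CCM changed the transcriptome of LPS-treated WT macrophages broadly, and with TMM scaling more genes fell than rose. Of 13579 genes tested, 1621 were called (11.9%), of which 1057 fell (7.78%) and 564 rose (4.15%). Most shifts were small, with a median log2 fold change of -0.38 among genes that fell and 0.34 among those that rose. Of the genes that fell, 70 did so by more than 1 on the log2 scale, against 15 of those that rose. The 3 LPS+CCM libraries lay below all 3 LPS libraries for 1055 of the 1057 genes that fell, where 15.8% of all tested genes did so, and above them for 563 of the 564 that rose, where 14.3% of all tested genes did. Genes that fell made up 28.7% of all CPM with LPS and 22.1% with LPS+CCM, and genes that rose went from 4.54% to 5.6%. Same-numbered libraries deviated together (r = 0.36, 0.151 and 0.291), and a fit blocked on that number called 3220 genes (23.7%), 1803 lower (13.3%) and 1417 higher (10.4%), among them the 1621 in the same direction. Counts of list members with the block, given below, are to be read beside these shares. With total counts as the scaling, 2272 genes were called and the split turned, with 733 lower (5.4%) and 1539 higher (11.3%). That scaling moved the median log2 fold change of all genes from 0.014 to 0.094, and 1297 of the 1621 calls remained in the same direction. A fit of the 12 WT libraries retained 1312 of them. In a fit of all 36 libraries, which share one estimate of spread, 17 of the 1621 calls remained. Without LPS replicate 2 there were 958 calls (249 higher), without LPS+CCM replicate 2 there were 893 (216 higher and 677 lower), and without LPS+CCM replicate 3 there were 348 higher.

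The 15 genes that fell most, by the naming rule given in the methods, included secreted mediators, surface receptors and intracellular proteins. Dok7 (ENSMUSG00000044716, chromosome 5, 35056766 to 35087839, + strand), which encodes an adaptor known from the neuromuscular junction, had 7.21, 6.95 and 7.37 CPM in the LPS libraries and 2.55, 2.36 and 1.46 CPM with LPS+CCM (log2 fold change -1.75, standard error 0.205, adjusted p = 0.000391). Serpinb2 (ENSMUSG00000062345, chromosome 1, 107511423 to 107535478, + strand), which encodes plasminogen activator inhibitor 2, had 255, 339 and 311 CPM against 59.6, 120 and 108 CPM (log2 fold change -1.64, standard error 0.203, adjusted p = 0.000538). Its exons overlap those of Serpinb10, so part of its count is uncertain. Kdr, a receptor for vascular endothelial growth factor, fell from 20.9, 19.4 and 20.2 to 7.94, 7.02 and 6.88 CPM (log2 fold change -1.46, standard error 0.0979, adjusted p = 2.72e-05). In these 3 genes every LPS+CCM library lay below every LPS library, with replicate 1 of LPS+CCM the lowest for Serpinb2 and replicate 3 the lowest for Dok7 and Kdr. Apol7c of the apolipoprotein L family fell by 1.52, Clic5, a chloride intracellular channel protein, by 1.41, Spint1, an inhibitor of serine proteases, by 1.36 and Rnf225, a RING finger protein, by 1.31 on the log2 scale. The chemokine Cxcl11, the cytokines Il27 and Il12b, the prostaglandin synthase Ptgs2, the activation marker Cd69 and the vasoconstrictor Edn1, with log2 fold changes between -1.33 and -1.22, are given with their families below. Ighg2b, an immunoglobulin heavy chain gene, had 12.8, 11.1 and 4.75 CPM against 3.2, 4.45 and 3.08 CPM, and its call was lost without LPS replicate 2 (0.0849), LPS+CCM replicate 1 (0.0545), LPS+CCM replicate 2 (0.0562) and LPS+CCM replicate 3 (0.0808). The POU factor Pou3f1 (-1.24, adjusted p = 0.0127) lost its call without LPS+CCM replicate 2 (0.0546) and in the fit of 12 WT libraries (0.0668).

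Among the 15 genes that rose most were transporters, a nuclear export receptor and a replication checkpoint gene. Slc16a6 (ENSMUSG00000041920, chromosome 11, 109450855 to 109473598, - strand), a monocarboxylate transporter, had 12, 12.1 and 11.9 CPM with LPS and 33, 37.7 and 30.8 CPM with LPS+CCM (log2 fold change 1.5, standard error 0.0873, adjusted p = 1.4e-05). Its exons overlap those of Amz2, Arsg and Gm25540. Arrdc3 (ENSMUSG00000074794, chromosome 13, 80883384 to 80896042, + strand), an alpha-arrestin that acts in receptor traffic, rose from 10.8, 11.9 and 9.18 to 24.5, 25.6 and 25.2 CPM (log2 fold change 1.25, standard error 0.098, adjusted p = 5.25e-05). Xpo1 (ENSMUSG00000020290, chromosome 11, 23256041 to 23298249, + strand), the export receptor for proteins with leucine-rich export signals, had 102, 104 and 104 CPM against 201, 196 and 191 CPM (log2 fold change 0.92, standard error 0.045, adjusted p = 9.24e-06). The replicates of these genes lay close together, and the gap between groups exceeded the spread within them. Hmgn1, a nucleosome-binding protein, rose from 38.9, 45.3 and 47 to 79.3, 83.3 and 88.2 CPM (0.94, adjusted p = 5.25e-05), although processed copies of this gene make its count uncertain. Snx24, a sorting nexin, rose by 0.93, Kcnk13, a potassium channel, by 0.89, Mturn by 0.86, Zbed3 by 0.99, the axon guidance gene Draxin by 0.97, the prostaglandin receptor Ptger2 by 0.90 and the amino acid transporter Slc43a2 by 0.83 on the log2 scale. Draxin was not called in the fit of 12 WT libraries (adjusted p = 0.0912). Calls of 4 further genes of low level depended on single libraries. Slc16a9 (1.12) was lost without LPS replicate 3 (0.0584), LPS+CCM replicate 1 (0.0584) and LPS+CCM replicate 2 (0.0608), Clspn, a replication checkpoint mediator (0.98), without LPS replicate 2 (0.0671), LPS+CCM replicate 2 (0.0875) and LPS+CCM replicate 3 (0.0509), and Fam83f (0.98) without LPS replicate 2 (0.0698) and LPS+CCM replicate 2 (0.0789), with adjusted p in brackets. Ska3, a kinetochore protein (0.88), was lost without LPS replicate 1 or 3 or LPS+CCM replicate 1, 2 or 3 (adjusted p = 0.0728 to 0.155).

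**Figure D1:**
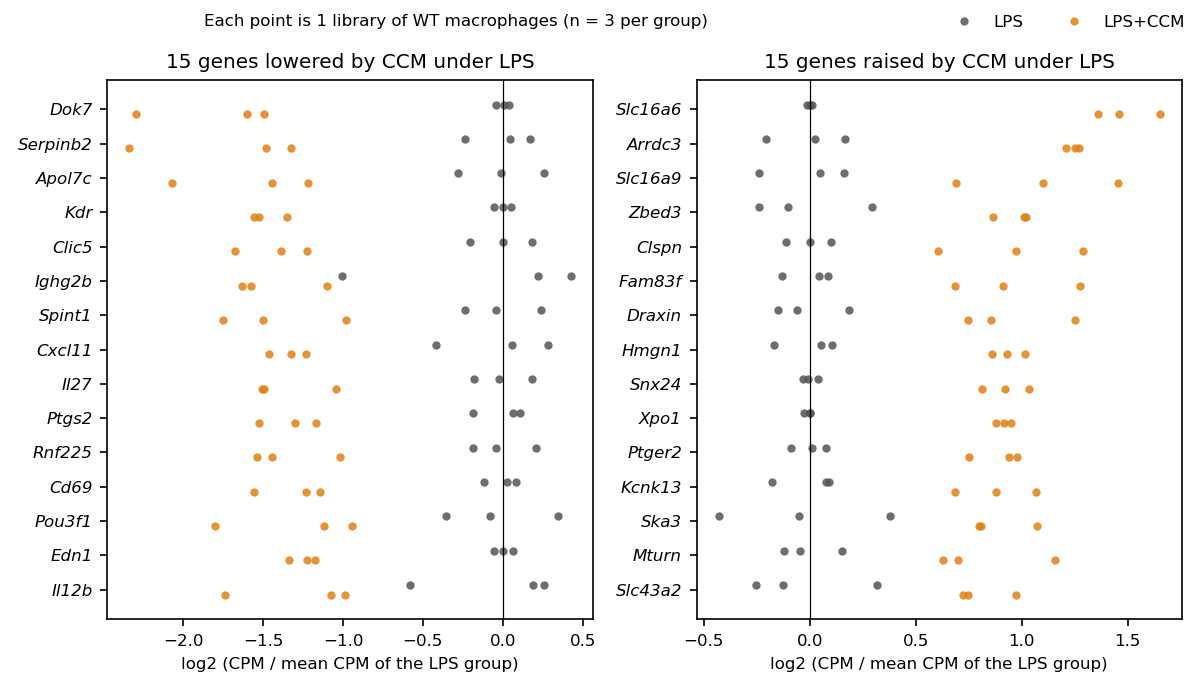
Levels of the 15 genes that fell most (left) and the 15 that rose most (right) with CCM under LPS, as log2 of CPM over the mean of the LPS group, 1 point for each of the 3 libraries of a group. The groups do not overlap for any gene shown, although for Ighg2b LPS replicate 3 (4.75 CPM) lay next to LPS+CCM replicate 2 (4.45 CPM).

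The promoters of the 2 genes that fell most and the 2 that rose most and had an entry in the RefSeq table (build GRCm38.p6, 250 bases before to 50 after the annotated start) are printed to show what sequence lies at these starts. Dok7 lies at chr5:35056516-35056815 (+ strand), Serpinb2 at chr1:107511173-107511472 (+), Arrdc3 at chr13:80883134-80883433 (+) and Slc16a9 at chr10:70245026-70245325 (+). Capitals mark matches to the motifs searched.
Dok7: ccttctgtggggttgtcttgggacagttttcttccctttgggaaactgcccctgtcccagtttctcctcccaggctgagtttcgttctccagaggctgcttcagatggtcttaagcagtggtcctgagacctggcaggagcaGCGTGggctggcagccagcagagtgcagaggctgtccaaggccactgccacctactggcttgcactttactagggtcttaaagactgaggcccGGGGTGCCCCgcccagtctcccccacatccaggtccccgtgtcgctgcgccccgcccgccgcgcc
Serpinb2: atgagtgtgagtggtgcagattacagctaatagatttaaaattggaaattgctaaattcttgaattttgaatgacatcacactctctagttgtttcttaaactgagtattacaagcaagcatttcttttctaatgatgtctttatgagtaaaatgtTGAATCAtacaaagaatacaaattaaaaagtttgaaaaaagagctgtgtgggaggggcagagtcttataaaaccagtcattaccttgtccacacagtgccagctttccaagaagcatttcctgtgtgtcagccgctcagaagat
Arrdc3: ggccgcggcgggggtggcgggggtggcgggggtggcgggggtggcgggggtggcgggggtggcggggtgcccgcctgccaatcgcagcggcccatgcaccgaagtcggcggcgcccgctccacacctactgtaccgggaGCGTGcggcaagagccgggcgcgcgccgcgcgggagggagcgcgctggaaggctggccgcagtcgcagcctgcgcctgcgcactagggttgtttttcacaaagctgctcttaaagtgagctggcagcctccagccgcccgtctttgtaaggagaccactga
Slc16a9: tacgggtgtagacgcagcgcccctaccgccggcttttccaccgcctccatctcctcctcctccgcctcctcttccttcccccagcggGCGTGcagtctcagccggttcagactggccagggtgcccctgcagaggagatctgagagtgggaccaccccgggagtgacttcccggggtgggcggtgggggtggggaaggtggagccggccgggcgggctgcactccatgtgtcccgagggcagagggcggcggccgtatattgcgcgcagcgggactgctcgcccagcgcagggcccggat
In Dok7 the capitals are a kappa-B consensus match at position -15 and the XRE core (GCGTG, the core bound by the AhR) at -108, counted from the annotated start. Serpinb2 holds an AP-1 site (TGANTCA) at -94, and Arrdc3 and Slc16a9 hold the XRE core, which 51.5% of the promoters of all tested genes hold.

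Interferon-beta, several of its signal factors and its antiviral target genes were lower with CCM. Ifnb1, the interferon that macrophages make first, was at 0, 0 and 0 CPM in the vehicle libraries, at 1.95, 1.3 and 1.69 CPM with LPS and at 0.474, 0.367 and 0.261 CPM with LPS+CCM (log2 fold change -2.14, standard error 0.354, adjusted p = 0.00322). These are low counts, and DESeq2 gave no adjusted p for the gene. Of 10 genes for interferons, receptors and kinases, 8 were tested (Ifna2 and Ifna4 were too low). The kinase Jak2 fell (634 to 539 CPM, -0.23, adjusted p = 0.00587), as did Tyk2 (-0.32, adjusted p = 0.0125), whose call was lost without LPS+CCM replicate 2 (0.0702) and LPS+CCM replicate 3 (0.0502). Ifngr1, a chain of the receptor for interferon-gamma, rose (79.8 to 99.9 CPM, 0.33, adjusted p = 0.0054), and Ifnar1 (0.06), Ifnar2 (0.03), Ifngr2 (-0.01) and Jak1 (-0.09) were not called.

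Of 14 interferon signal factors, 6 fell and 1 rose, with a median log2 fold change of -0.27 against 0.01 over all genes tested. Irf1 (ENSMUSG00000018899, chromosome 11, 53770014 to 53778374, + strand), a factor that NF-kB induces, had 259, 249 and 224 CPM with LPS and 157, 136 and 117 CPM with LPS+CCM (log2 fold change -0.82, standard error 0.0969, adjusted p = 0.000401), and its exons overlap Gm17334. Stat2 had 294, 280 and 299 CPM against 246, 234 and 216 CPM (-0.32, adjusted p = 0.00488). The groups overlapped in neither gene. Irf7, which carries the second wave of interferon induction, fell from 1313 to 956 CPM (-0.45, adjusted p = 0.000495), although not in a fit of the 12 WT libraries (0.0623), and Stat3 fell by 0.30. Stat6, which signals for IL-4, was the member that rose (0.23, adjusted p = 0.0175), a call lost without LPS replicate 2 (0.0591) and LPS+CCM replicate 2 (0.0902). Irf3, which TRIF activates, was at 46.3 and 45.6 CPM and Irf9 at 118 and 108 CPM, neither of them called, although Irf9 was called in the fit with a replicate block (adjusted p = 0.0425).

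All 30 antiviral effectors tested fell (Ifi44l was too low), with a median log2 fold change of -0.46, and 27 or 28 of them did so when any 1 library was left out. Rsad2, which encodes viperin, had 3491, 3257 and 3571 CPM with LPS and 2120, 2057 and 1995 CPM with LPS+CCM (log2 fold change -0.73, standard error 0.0495, adjusted p = 2.72e-05). Mx1, a dynamin-like GTPase, had 1452, 1201 and 1259 against 801, 725 and 688 CPM (log2 fold change -0.81, standard error 0.0792, adjusted p = 0.000138). Ifit1 (ENSMUSG00000034459, chromosome 19, 34640871 to 34650009, + strand), which binds foreign RNA caps, had 1500, 1476 and 1562 against 1049, 1063 and 1024 CPM (log2 fold change -0.53, standard error 0.0422, adjusted p = 5.41e-05), with an adjusted p of 0.0842 in the fit of 12 WT libraries. These 3 genes were between 3.54 and 9.33 CPM in the vehicle group, and the LPS+CCM libraries lay between vehicle and LPS alone. The RNA sensors Ifih1 (-0.73), Ddx58 (-0.47) and Dhx58 (-0.42) fell, and so did Cmpk2 (-0.81), Isg20 (-0.82), Usp18 (-0.64), Isg15 (-0.43) and Samhd1 (-0.45). The smallest changes were those of Ifitm3 (-0.15, adjusted p = 0.0483), Oasl2 (-0.19, adjusted p = 0.00977) and Oas2 (-0.22, adjusted p = 0.049). Ifitm3 lost its call without LPS replicate 2 or 3 or LPS+CCM replicate 1, 2 or 3 (adjusted p = 0.0887 to 0.174), Oas2 without LPS replicate 1 or 3 or LPS+CCM replicate 1, 2 or 3 (adjusted p = 0.0565 to 0.178), and Oasl2 with total counts alone as the scaling (0.0674) or in the fit of 12 WT libraries (0.354). Total counts and the 12-library fit also ended the calls of Ifitm3 (adjusted p = 0.3 and 0.504) and Oas2 (0.154 and 0.257). Upper-quartile scaling ended both calls too (0.0713 and 0.0637), and voom that of Oas2 (0.0907).

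Of 18 interferon-induced GTPases of the guanylate-binding protein (GBP) and immunity-related (IRG) families, which attack the vacuoles of intracellular microbes, 15 fell, with a median log2 fold change of -0.60. Gbp5 (ENSMUSG00000105504, chromosome 3, 142493978 to 142522344, + strand) had 1509, 1442 and 1406 CPM with LPS and 870, 881 and 790 CPM with LPS+CCM (log2 fold change -0.77, standard error 0.0536, adjusted p = 3.11e-05). Gbp2 had 2062, 2091 and 2027 against 1534, 1520 and 1521 CPM (-0.43, adjusted p = 9.73e-05). Iigp1 had 151, 135 and 144 against 73.6, 62.4 and 66.7 CPM (-1.08, adjusted p = 2.68e-05). The groups of each of these genes stood apart, and their levels in the vehicle group were between 0.404 and 7.4 CPM. When any 1 library was left out, 13 or 14 members of the list fell. Several members are close copies or share exons (Gbp4, Gbp8 and Gbp9, and Irgm2 and Igtp), and reads could be split among them. Gbp2b (-0.53), Gbp8 (-0.60) and Gvin1 (-0.43) were not called, the latter pair being called with the replicate block (adjusted p = 0.0493 and 0.0135).

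**Figure D2:**
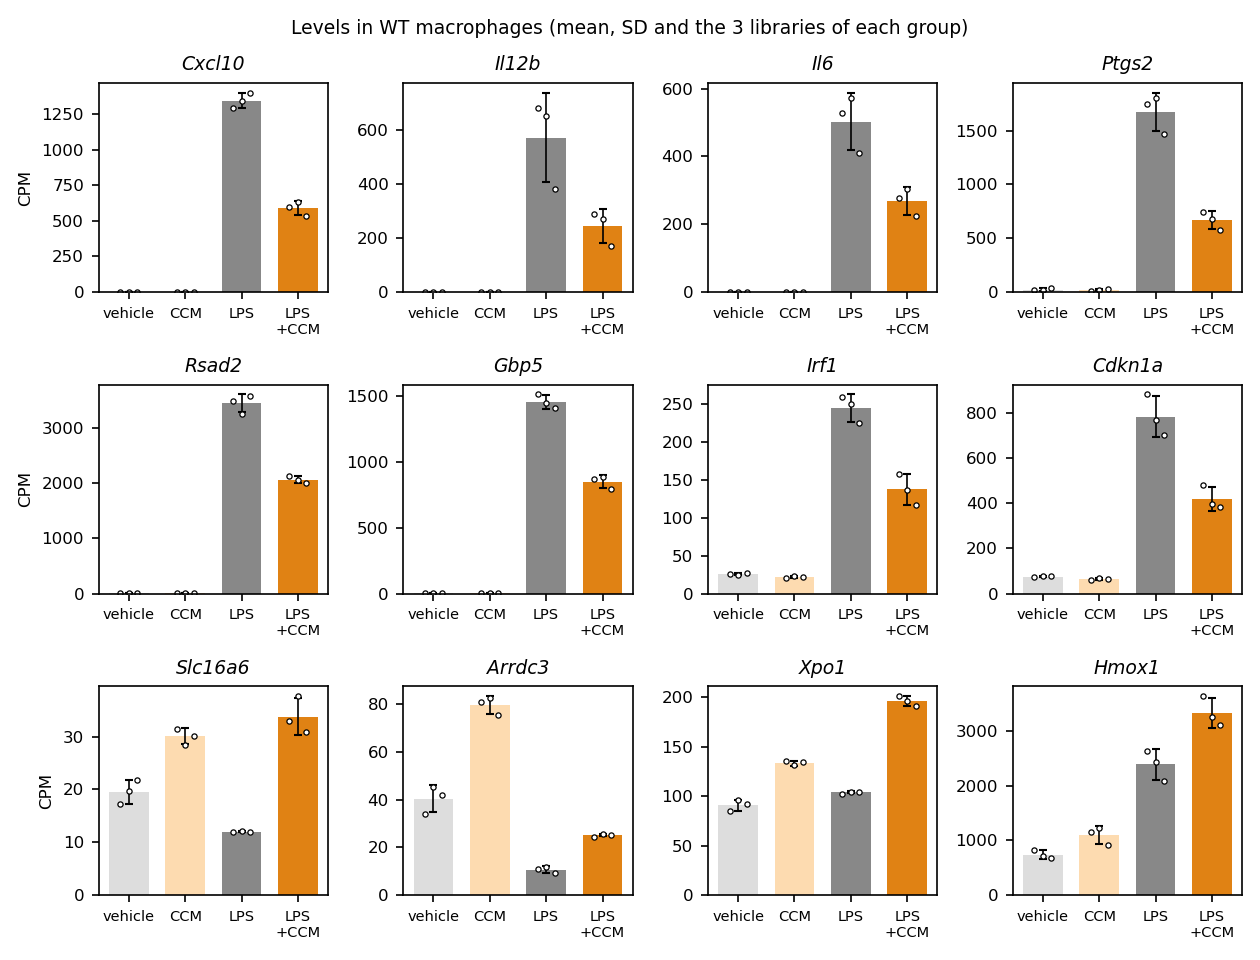
CPM of 12 genes in the 4 groups of WT macrophages, with bars for the mean, lines for the SD and points for the 3 libraries. The first 8 genes are high with LPS and lower with LPS+CCM, for example Cxcl10 (1347 and 591 CPM), and in the bottom row Slc16a6, Arrdc3, Xpo1 and Hmox1 have higher means with CCM both without and with LPS.

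Of 22 chemokines tested, 13 fell (median log2 fold change -0.51), and 10 to 12 did so without any 1 library. Cxcl10 (ENSMUSG00000034855, chromosome 5, 92346638 to 92348889, - strand), which attracts activated T cells, had 1296, 1344 and 1401 CPM with LPS and 599, 637 and 538 CPM with LPS+CCM (log2 fold change -1.18, standard error 0.0624, adjusted p = 1.24e-05). Its interferon-induced relatives Cxcl9 (102 to 49.8 CPM, -1.03) and Cxcl11 (12.4 to 4.91 CPM, -1.33) also fell. The monocyte attractants Ccl2 (-0.83), Ccl7 (-0.93) and Ccl12 (-1.05) and the inflammatory Ccl3 (2209 to 1222 CPM, -0.85) and Ccl4 (-0.58) fell too. The neutrophil attractants were less uniform. Cxcl2 fell (2556 to 1864 CPM, -0.45, adjusted p = 0.00508), whereas Cxcl3 had 762, 757 and 443 CPM with LPS and 800, 756 and 560 CPM with LPS+CCM, with overlapping groups (0.12). Cxcl1 (-0.28, adjusted p = 0.0378) was lost without LPS replicate 1 or 2 or LPS+CCM replicate 2 or 3 (adjusted p = 0.0915 to 0.149), and Ccl5 (4053 to 3517 CPM, -0.20, adjusted p = 0.0359), the chemokine with the highest length-scaled level here (4222 FPKM with LPS), was lost without LPS replicate 1 or 2 or LPS+CCM replicate 2 or 3 (adjusted p = 0.093 to 0.136). Both were also lost with total counts (adjusted p = 0.0913 and 0.141) and in the fit of 12 WT libraries (0.179 and 0.157). Ccl9 (-0.14), Cxcl14 (0.06), Cxcl16 (-0.09) and Ccl6 (0.13) were not called. The block called Ccl9 lower and Ccl6 and Cxcl3 higher (adjusted p = 0.000801, 0.0266 and 0.0344). Of 12 receptors for chemoattractants, 5 fell, led by Ccrl2, which presents chemerin (477, 433 and 428 to 265, 218 and 222 CPM, -0.92, adjusted p = 7.37e-05), with the complement receptor C3ar1 at -0.31. The count was 3 without LPS replicate 2, LPS replicate 3 or LPS+CCM replicate 3 and 2 without LPS+CCM replicate 2, and Ccr1 and Cx3cr1 were not called.

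Of the lists with 10 or more tested members, cytokines had the lowest median, with 21 of 24 tested members lower (median log2 fold change -0.69, 15 to 20 calls without any 1 library). Csf2 and Il33 were too low to be tested. Cytokines that favour T helper 1 responses were among those that fell. Il12b, the p40 chain of IL-12, had 680, 649 and 381 CPM with LPS and 288, 271 and 171 CPM with LPS+CCM (log2 fold change -1.22, standard error 0.224, adjusted p = 0.00615). Il27 had 333, 288 and 258 against 142, 104 and 103 CPM (log2 fold change -1.33, standard error 0.128, adjusted p = 0.000134), and its exons overlap those of Apobr. In both genes replicate 3 was the lowest library of each group, and the groups did not overlap. Il12a fell by 1.06, Il15, which sustains NK cells, by 1.18 (103 to 45.5 CPM) and Il18 by 0.79. Il6 had 529, 571 and 409 against 278, 304 and 224 CPM (log2 fold change -0.90, standard error 0.128, adjusted p = 0.00137) and Tnf 1749, 1819 and 1630 against 1244, 1021 and 939 CPM (log2 fold change -0.69, standard error 0.0911, adjusted p = 0.000834). Il1a fell from 1349 to 831 CPM (-0.69, adjusted p = 0.00599), while the call of Il1b (3951 to 2813 CPM, -0.48, adjusted p = 0.0322) was lost without LPS replicate 2 (0.125), LPS+CCM replicate 1 (0.0848) and LPS+CCM replicate 3 (0.103), with total counts alone (0.0543) and in DESeq2 (0.0782). The anti-inflammatory Il10 (21.6 to 12.9 CPM, -0.74) and the receptor antagonist Il1rn (1931 to 1362 CPM, -0.50) fell as well, the latter not in the fit of 12 WT libraries (adjusted p = 0.0947). Of the TNF family, Tnfsf10, which encodes TRAIL (-0.99), and Tnfsf15 (-0.72) fell. Csf1 (-0.18), Lta (-0.49) and Ltb (-0.27) were not called, although Csf1 was with the block (adjusted p = 0.00608).

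**Figure D3:**
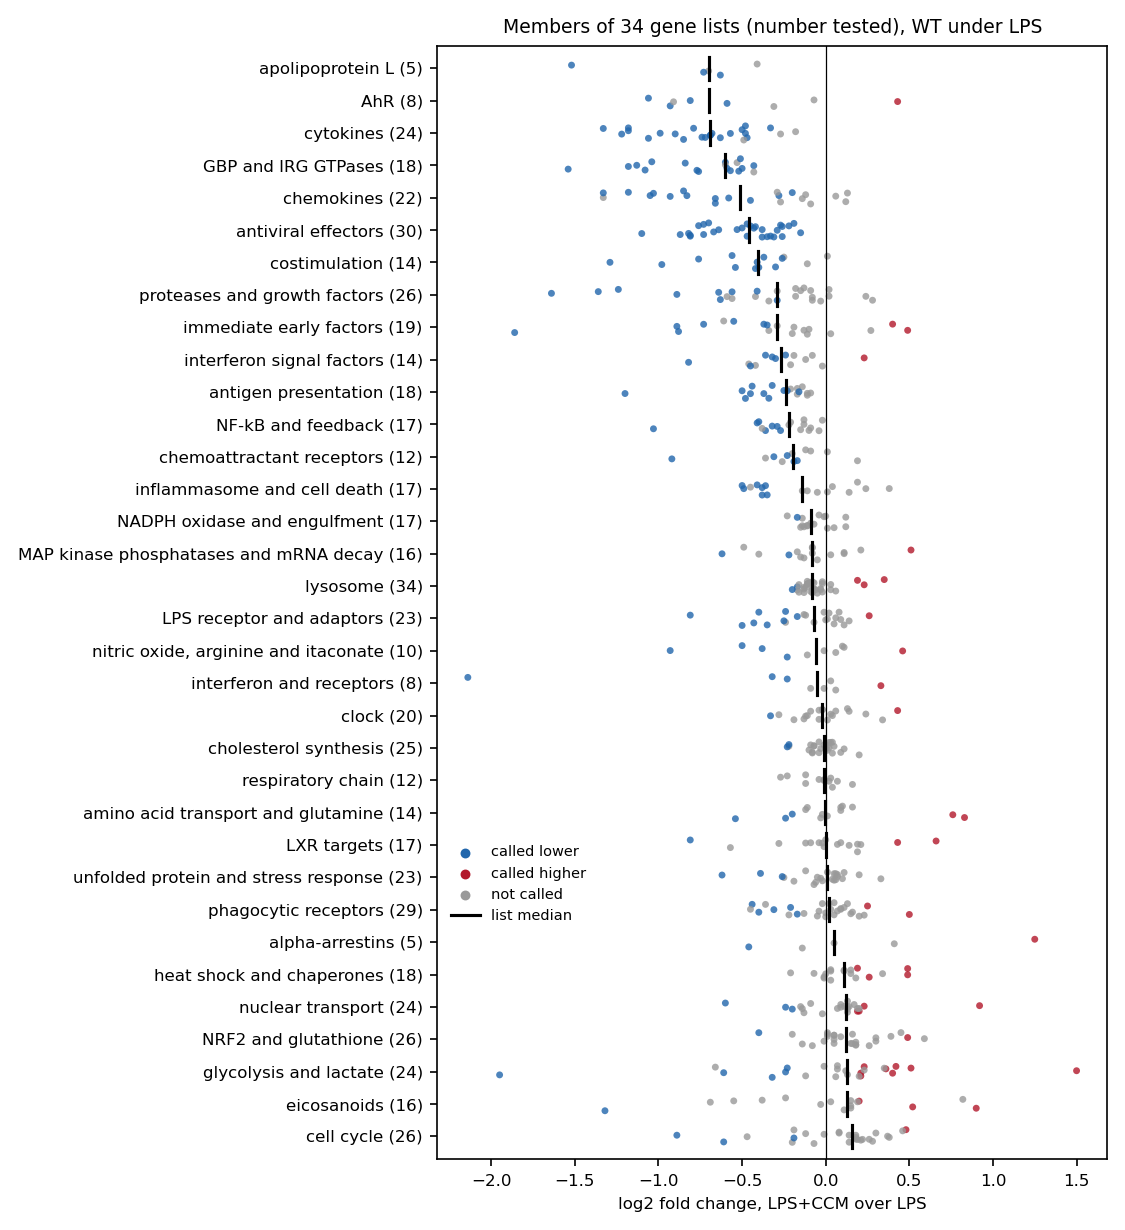
Log2 fold change of LPS+CCM over LPS for the tested members of 34 gene lists, 1 point per gene, with a black line at each list's median and the number tested in brackets. Points of the apolipoprotein L, AhR, cytokine, GBP and IRG, chemokine and antiviral lists lie mostly to the left (medians -0.70 to -0.46), and the medians of the lists at the bottom lie between 0.11 and 0.16.

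The promoters of Ifit1 and Cxcl10 are printed because they hold a motif found more often among genes that fell than among all tested genes. They were chosen after their values were seen, and lie at chr19:34640639-34640938 (+ strand) and chr5:92348840-92349139 (- strand, printed 5′ to 3′) of GRCm38.p6 in RefSeq's table.
Ifit1: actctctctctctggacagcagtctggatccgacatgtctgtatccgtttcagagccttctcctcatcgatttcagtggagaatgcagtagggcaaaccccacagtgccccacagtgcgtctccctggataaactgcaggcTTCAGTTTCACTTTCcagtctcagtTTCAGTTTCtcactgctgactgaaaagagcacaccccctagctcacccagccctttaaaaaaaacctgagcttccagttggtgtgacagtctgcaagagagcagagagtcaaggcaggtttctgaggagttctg
Cxcl10: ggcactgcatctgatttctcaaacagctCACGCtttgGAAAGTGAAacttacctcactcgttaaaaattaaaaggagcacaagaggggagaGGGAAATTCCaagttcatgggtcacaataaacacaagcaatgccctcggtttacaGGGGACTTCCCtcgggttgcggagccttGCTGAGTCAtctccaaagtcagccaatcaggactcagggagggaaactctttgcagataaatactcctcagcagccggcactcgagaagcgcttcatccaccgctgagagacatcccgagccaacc
In Ifit1 the capitals mark the core of the interferon-stimulated response element (ISRE, GAAANNGAA on either strand) at positions -109, -103 and -84. The matches at -109 and -103 overlap. In Cxcl10 they mark the ISRE core at -213, kappa-B consensus matches at -159, -104 and -103, an AP-1 site at -74, which lies inside a match to the NRF2 element (TGACNNNGC) at -76, and the XRE core at -222.

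Across promoters, the ISRE core was found in 133 of the 816 promoters of genes that fell (16.3%), in 17 of the 450 of genes that rose (3.78%) and in 7.61% of those of all 9822 tested genes with an entry. Of all 32851 promoters in the table, 8.56% held it. The shares were 100% of the 10 GBP and IRG promoters, 66.7% of the 24 antiviral promoters and 6.25% of the 16 cytokine promoters. The AP-1 site was found in 8.95% of promoters of genes that fell, 3.33% of those that rose and 5.06% of all tested (7.81% of all promoters), and the kappa-B consensus in 14.1%, 10.2% and 10.2% (8.46% of all promoters), with 37.5% among cytokines. The E-box CACGTG, the site of BMAL1-CLOCK, was found in 10.2% of promoters of genes that fell, 9.78% of those that rose and 10.3% of all tested (7.15% of all promoters). The XRE core followed the other order, with 46% among genes that fell, 57.6% among those that rose and 51.5% of all tested (32.4% of all promoters). The remaining motifs gave 14.7%, 10.7% and 15.1% in the same order for the NRF2 element, 5.76%, 5.56% and 5.8% for the heat shock element (GAANNTTC), 2.57%, 2.22% and 3.22% for the cAMP element (TGACGTCA), 2.08%, 0.889% and 1.86% for the ROR element (TAGGTCA), 1.59%, 1.78% and 1.34% for the D-box (TTANGTAA) and 0.858%, 1.33% and 1.08% for the SREBP element (TCACNCCAC). A match of letters in this window is a description and not evidence that a factor binds there.

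**Figure D4:**
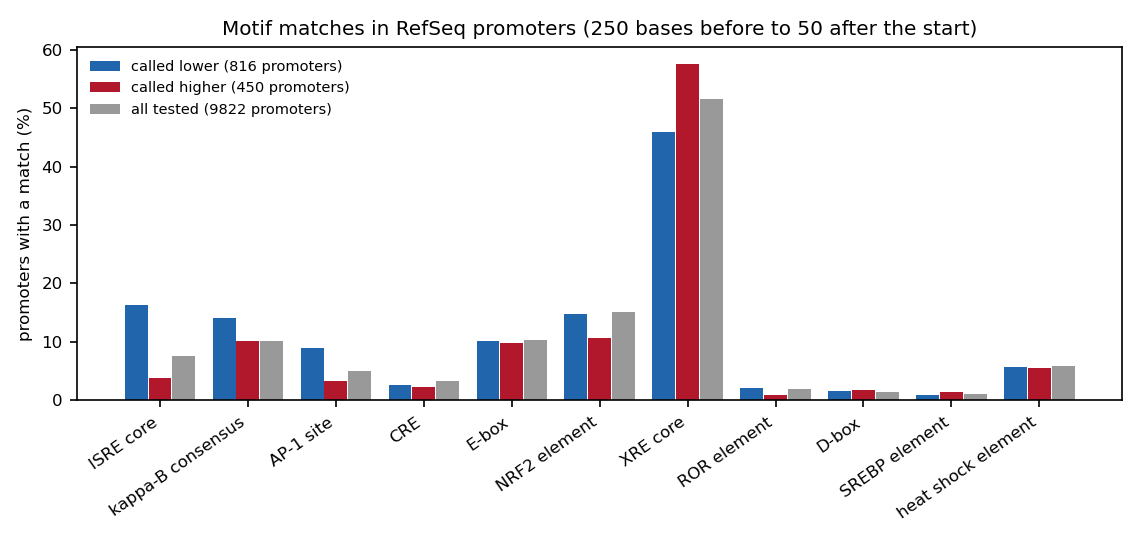
Share of RefSeq promoters with a match to each motif among genes that fell (blue), genes that rose (red) and all tested genes (grey). The ISRE core stands at 16.3, 3.78 and 7.61%, the E-box at 10.2, 9.78 and 10.3% and the XRE core at 46, 57.6 and 51.5% in that order.

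The genes of the LPS receptor complex were not called, and parts of the pathway behind it fell. Tlr4 had 47.3, 52.2 and 45.6 CPM with LPS and 48.7, 55.4 and 46.9 CPM with LPS+CCM (0.06). Cd14 (2429 to 2445 CPM, 0.02), Ly96, which encodes MD-2 (-0.07), Ticam1, which encodes TRIF (0.00), and Tirap (0.01) were likewise not called, with standard errors of 0.0461 to 0.0732. Of 23 tested receptors and adaptors, 8 fell and 1 rose, and 5 fell without LPS+CCM replicate 2. Myd88 had 247, 241 and 242 against 189, 194 and 185 CPM (-0.35, adjusted p = 0.000465), the kinase Irak2 fell by 0.40, and of the endosomal receptors Tlr3, a sensor of double-stranded RNA, fell most (95, 94.9 and 102 to 57.3, 57.7 and 51.5 CPM, -0.81, adjusted p = 5.25e-05). Tlr7 (-0.43) and Tlr8 (-0.24) fell and Tlr13, a sensor of bacterial ribosomal RNA, rose (245 to 292 CPM, 0.26, adjusted p = 0.00393).

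Of 17 NF-kB subunits and feedback genes, 7 fell (median -0.22), and 12 did with the replicate block. Nfkb2 had 836, 833 and 784 against 633, 607 and 598 CPM (-0.41, adjusted p = 0.000296). Nfkb1 (-0.29), Rel (-0.40), Nfkbiz (-0.36) and the deubiquitinase Tnfaip3 (-0.32) fell, and Cish, a suppressor of cytokine signals, fell from 5.3 to 2.6 CPM (-1.03). Rela (-0.13), Nfkbia (-0.21) and Socs3 (-0.04) were not called, although Rela (adjusted p = 0.0137) and Nfkbia (adjusted p = 0.000656) were with the block. Immediate early factors moved in both directions, 7 of 19 lower and 2 higher. Egr1 (16.1 to 8.73 CPM, -0.88, adjusted p = 0.00146), Ier3 (-0.73) and Ier2 (-0.55) fell, and Npas4, a neuronal factor near the detection limit, had 0.886, 0.912 and 1.01 CPM against 0.178, 0.314 and 0.261 CPM (-1.86), with no adjusted p from DESeq2. Egr1 was not called in the fit of 12 WT libraries (adjusted p = 0.0632). Jun had 53.8, 58.6 and 60.7 against 79.1, 76.2 and 86.1 CPM and rose (0.49, adjusted p = 0.000935), whereas the rise of Fos (0.40, adjusted p = 0.0171) was lost without LPS replicate 2 (0.0654), LPS+CCM replicate 2 (0.0539) and LPS+CCM replicate 3 (0.0618), and 1 gene was then higher. Of 16 MAP kinase phosphatases and mRNA decay factors, Dusp6 rose (0.51, adjusted p = 0.00608), Dusp2 fell (-0.62) and Dusp16 (-0.22, adjusted p = 0.0301) lost its call without LPS replicate 2 or 3 or LPS+CCM replicate 2 or 3 (adjusted p = 0.0553 to 0.13), with total counts (0.115) and in the fit of 12 WT libraries (0.14). Dusp1 (0.21), Zfp36 (-0.40) and Zc3h12a (-0.13) were not called, and all 3 were with the block (adjusted p = 0.00143, 0.000533 and 0.0168). Of these 16 phosphatase and decay genes 18.8% were called, beside 11.9% of all genes tested.

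In the prostaglandin pathway the inducible synthase Ptgs2 fell and the receptor gene Ptger2 rose. Ptgs2 (ENSMUSG00000032487, chromosome 1, 150100031 to 150108227, + strand), which encodes COX-2, had 1747, 1800 and 1468 CPM with LPS and 745, 678 and 580 CPM with LPS+CCM (log2 fold change -1.32, standard error 0.0968, adjusted p = 4.29e-05). Ptger2, a receptor for prostaglandin E2 that raises cAMP, had 9.92, 9.25 and 10.4 against 19.4, 18.9 and 16.6 CPM (log2 fold change 0.90, standard error 0.1, adjusted p = 0.000285), and its exons overlap Gm17173 and Gm49364. The other receptor of that kind, Ptger4, was at 21.6, 21.7 and 30.7 and 31.3, 33.4 and 41.3 CPM (0.52, adjusted p = 0.0401), a call lost without LPS replicate 1 or 2 or LPS+CCM replicate 2 or 3 (adjusted p = 0.088 to 0.15), and Ptges, which makes prostaglandin E2, was at 745 and 850 CPM (0.20, adjusted p = 0.025), lost without LPS replicate 2 or 3 or LPS+CCM replicate 1 or 3 (adjusted p = 0.0585 to 0.118) and in the fit of 12 WT libraries (0.0611). In all, 3 of 16 eicosanoid genes rose, and 1 did without LPS replicate 2 or LPS+CCM replicate 3. Ptgs1 (-0.38), Alox5 (-0.55) and Pla2g4a (-0.03) were not called, and 4 members, Ptgs1 and Alox5 among them, were lower with the replicate block and 2 without LPS+CCM replicate 1 or 3.

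Nos2, the inducible nitric oxide synthase, had 349, 387 and 402 CPM with LPS and 202, 196 and 195 CPM with LPS+CCM (log2 fold change -0.93, standard error 0.0552, adjusted p = 1.42e-05), and Gch1, which supplies its cofactor, fell from 321 to 226 CPM (-0.50, adjusted p = 0.000134). Sat1, of polyamine breakdown, fell by 0.38. Acod1, which makes itaconate and had the highest length-scaled level of its list (2506 FPKM with LPS), was at 6898, 6629 and 6190 and 5827, 5673 and 5240 CPM (-0.23, adjusted p = 0.0258), a call lost without LPS replicate 1 or 2 or LPS+CCM replicate 2 or 3 (adjusted p = 0.0756 to 0.0914) and with total counts (0.0921). Odc1, of polyamine synthesis, rose (0.46, adjusted p = 0.0359), a call lost without LPS replicate 1 or 2 or LPS+CCM replicate 2 or 3 (adjusted p = 0.0777 to 0.135) and in the fit of 12 WT libraries (0.0704). Arg1 (0.06), Arg2 (-0.01), Ass1 (0.10) and the arginine transporter Slc7a2 (-0.11) were not called, although Ass1 and Slc7a2 were with the block (adjusted p = 0.0419 and 0.00433).

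Of 18 antigen presentation genes, 11 fell (median -0.24), and 10 of the 11 belong to class I loading, the immunoproteasome or their activator Nlrc5. Tap1, the peptide transporter, had 732, 712 and 755 against 525, 494 and 529 CPM (-0.50, adjusted p = 0.000112), and shares exonic sequence with its neighbour Psmb9 (-0.37). Psmb10 fell by 0.48, Psmb8 by 0.34, Nlrc5 by 0.45 and B2m from 3326 to 2785 CPM (-0.25, adjusted p = 0.00513). The class II genes H2-Aa (-0.14), H2-Ab1 (-0.17), H2-Eb1 (-0.09) and Cd74 (-0.21) were not called. With the replicate block 15 of the 18 genes were lower. Of the class II genes these included H2-Ab1 and Cd74 (adjusted p = 0.0113 and 0.0011) but not H2-Aa (0.0579) or H2-Eb1 (0.223). The difference between class I and class II genes was not tested. Ciita, their activator, fell from 14.1, 10.7 and 10.1 to 7.17, 3.82 and 4.17 CPM (log2 fold change -1.20, standard error 0.231, adjusted p = 0.00793). H2-K1 (-0.16, adjusted p = 0.042) lost its call without any 1 of the 6 libraries (adjusted p = 0.054 to 0.136), and with total counts (0.233), upper-quartile scaling (0.0649) and the fit of 12 WT libraries (0.109). Of 14 costimulatory and adhesion molecules, 11 fell (median -0.41). Cd40 had 1262, 1143 and 1098 against 749, 642 and 662 CPM (-0.76, adjusted p = 0.000113), the early activation antigen Cd69 231, 222 and 201 against 98.5, 92.9 and 74.1 CPM (log2 fold change -1.29, standard error 0.0969, adjusted p = 4.63e-05), and Cd86 (-0.56), Cd83 (-0.98), the inhibitory ligand Cd274 (-0.42), Icam1 (-0.37) and Vcam1 (-0.54) fell. Cd80 (12.4 and 12.4 CPM) was not called.

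Of 17 inflammasome and cell death genes, 7 fell (median -0.14). Casp1 (-0.35), Casp4, the sensor of cytosolic LPS (215, 215 and 216 to 168, 162 and 165 CPM, -0.38, adjusted p = 0.000278), Gsdmd (-0.36), Mlkl (-0.50), Aim2 (-0.49) and Casp8 (-0.38) fell, and Nlrp3 did (735 to 551 CPM, -0.41, adjusted p = 0.00857) except without LPS+CCM replicate 2 (0.0546). The adaptor Pycard (0.24), Nlrc4 (0.19) and Ripk3 (-0.11) were not called. With the block 3 members, Pycard and Nlrc4 among them, were higher, and 1 was without LPS+CCM replicate 1. Of 5 tested genes of the apolipoprotein L family 3 fell, Apol7c from 25.5, 17.5 and 21.1 to 7.82, 5.08 and 9.17 CPM (log2 fold change -1.52, standard error 0.198, adjusted p = 0.000745), Apol9b (-0.73) and Apol9a (-0.63), while 6 further members were too low to be tested. Of 26 proteases, inhibitors and growth factors, 9 fell (14 with the replicate block). Edn1 had 103, 107 and 112 against 47.4, 45.7 and 42.4 CPM (log2 fold change -1.24, standard error 0.061, adjusted p = 9.24e-06) and overlaps Gm47118. Mmp13, a collagenase, fell from 2610 to 1761 CPM (-0.56, adjusted p = 0.000887), Plau and its receptor Plaur fell (-0.64 and -0.41), Inhba fell (-0.63) but not in the fit of 12 WT libraries (adjusted p = 0.21), and Mmp12 (0.02), Vegfa (0.02) and Timp1 (-0.08) were not called.

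Genes for taking up and digesting particles moved in both directions. Of the phagocytic receptors 24.1% were called, of the NADPH oxidase and engulfment genes 5.88% and of the lysosomal genes 14.7%, beside 11.9% of all genes tested. Of 29 phagocytic receptors, 5 fell and 2 rose, with a median of 0.02. Axl, which binds Gas6 on dying cells, had 987, 1009 and 1033 against 738, 708 and 771 CPM and fell (-0.44, adjusted p = 0.000182), and Lrp1, a scavenger receptor, rose (1171 to 1389 CPM, 0.25, adjusted p = 0.00736), although not in the fit of 12 WT libraries (0.0905). The other calls depended on single libraries. Fcgr1 (-0.31) was lost without LPS replicate 2 or 3 or LPS+CCM replicate 1 or 2 (adjusted p = 0.0898 to 0.112), Fcgr4 (-0.40) without LPS replicate 2 or 3 (adjusted p = 0.0596 to 0.0759), Fcer1g (-0.17) without LPS replicate 1 or 2 or LPS+CCM replicate 2 (adjusted p = 0.0512 to 0.0803), Mertk (-0.21) without LPS replicate 1 or 2 or LPS+CCM replicate 2 or 3 (adjusted p = 0.0562 to 0.114) and Cd300a (0.50) without LPS+CCM replicate 2 (adjusted p = 0.0509). Total counts ended the calls of Fcgr1, Fcer1g, Mertk and Lamp2 (adjusted p = 0.0841, 0.129, 0.107 and 0.157). The fit of 12 WT libraries ended those of Fcer1g, Mertk and Npc1 (0.125, 0.0933 and 0.0567), and RLE size factors that of Lipa (0.0509). Without LPS replicate 2 only Axl remained lower, without LPS+CCM replicate 2 there were 2 lower and 1 higher, and without LPS replicate 1 or 3 there were 3 lower, whereas the replicate block gave 8 lower and 7 higher. Msr1 (0.00), Itgb2 (0.05), Mrc1 (0.09), Clec7a (0.02) and Marco (0.16) were not called, although Marco was with the block (adjusted p = 0.0037). Of 17 genes of the NADPH oxidase and engulfment, 1 fell, 0 did without LPS replicate 2 or LPS+CCM replicate 2, and 7 were lower and 2 higher with the block. Of 34 lysosomal genes, 3 rose and 2 fell. The regulator Tfeb rose (27.2 to 34.4 CPM, 0.35, adjusted p = 0.00411), whereas Lipa (0.23) was lost without LPS replicate 2 or 3 or LPS+CCM replicate 1 or 2 (adjusted p = 0.136 to 0.153), Npc1 (0.19) without LPS replicate 2 or 3 or LPS+CCM replicate 1 or 3 (adjusted p = 0.086 to 0.134) and Lamp2 (-0.17) without LPS replicate 2 or 3 or LPS+CCM replicate 1 or 2 (adjusted p = 0.0514 to 0.0857). The number lower was 1 without LPS replicate 2 or 3 and 0 without LPS+CCM replicate 2. With the block 12 lysosomal genes were lower, where that fit called 13.3% of all genes tested lower and 10.4% higher. The cathepsin genes Ctsd (0.06), Ctsl (-0.08) and Ctsc (-0.02) were not called.

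Glycolysis and lactate transport moved in both directions, with 8 of 24 genes higher and 5 lower. Pkm, pyruvate kinase, had 1940, 2072 and 2094 CPM with LPS and 2270, 2338 and 2436 CPM with LPS+CCM (log2 fold change 0.21, standard error 0.0454, adjusted p = 0.0129), and Gpi1 (0.23) and Pfkfb4 (0.36) rose. Tpi1 (0.42, adjusted p = 0.00922) and Pfkl (0.40, adjusted p = 0.0129) rose too, the former lost without LPS+CCM replicate 2 (0.0546) and the latter without LPS+CCM replicate 3 (0.0512). Of the lactate and monocarboxylate carriers, Slc16a6 rose and Slc16a3 did (116 to 165 CPM, 0.51, adjusted p = 0.0212) except without LPS replicate 2 (0.0582), LPS+CCM replicate 2 (0.0919) and LPS+CCM replicate 3 (0.0784). The glucose transporter gene Slc2a6 had 879, 842 and 813 against 585, 526 and 544 CPM (-0.61, adjusted p = 8.83e-05), and the kinases Hk3 (-0.32) and Pfkp (-0.24) also fell. Hk2 (-0.01), Ldha (0.20) and Slc2a1 (0.07) were not called, although Ldha was with the block (adjusted p = 4.11e-05). The number higher was 5 without LPS+CCM replicate 2 or 3 and 13 with the block, and the number lower was 3 without LPS replicate 2. Gapdh is counted as lower (-1.95), but its libraries were at 13.4, 59.2 and 76.8 CPM with LPS and 13.4, 14.3 and 11.3 CPM with LPS+CCM, so that the groups overlapped, and its call was lost without LPS replicate 2 or 3 or LPS+CCM replicate 2 or 3 (adjusted p = 0.069 to 0.0934), with voom (0.057) and in the fit of 12 WT libraries (0.126). Its level of 12.1 FPKM was far under that of Pkm (407 FPKM), and the many processed copies of the gene in the mouse genome make its count uncertain. Glul, glutamine synthetase, had 57.8, 67.5 and 68.2 against 101, 117 and 108 CPM and rose (log2 fold change 0.76, standard error 0.074, adjusted p = 0.000138), and Slc43a2, a transporter of large neutral amino acids, had 95.7, 70.5 and 64.5 against 151, 129 and 127 CPM (log2 fold change 0.83, standard error 0.131, adjusted p = 0.00236). Of 14 amino acid genes 2 rose and 3 fell, and 1 fell without LPS replicate 3 or any 1 LPS+CCM library. The share called was 35.7%, beside 11.9% of all genes tested.

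Hmox1 (ENSMUSG00000005413, chromosome 8, 75093621 to 75100589, + strand), heme oxygenase 1 and a target of NRF2, had 2641, 2437 and 2085 CPM with LPS and 3640, 3258 and 3106 CPM with LPS+CCM (log2 fold change 0.49, standard error 0.0861, adjusted p = 0.00478). It was the 1 gene called higher of 26 in the NRF2 and glutathione list (median 0.12). Of that list 7.69% were called, beside 11.9% of all genes tested. The number higher was 9 without LPS replicate 1 or with total counts as the scaling. It was 12 with no filter beyond 1 count, 4 with voom and 13 with the replicate block. The last include Gclm at 581, 472 and 337 and 727, 631 and 524 CPM (0.45, adjusted p = 0.128, and 5.72e-07 with the block). In both groups Gclm was highest in replicate 1 and lowest in replicate 3. Gclm supplies a subunit of the enzyme that starts glutathione synthesis. Nqo1, the classic target of the same factor, was lower (-0.40, adjusted p = 0.0205), a call lost without LPS replicate 1 or 2 or LPS+CCM replicate 2 or 3 (adjusted p = 0.0584 to 0.0945) and in the fit of 12 WT libraries (0.0606), and Txnrd1 (0.05), Slc7a11 (0.05) and Sqstm1 (0.01) were not called. AhR is, like BMAL1, a factor with PAS domains. Of 8 tested genes of its pathway, 4 fell. The repressor Ahrr had 64.3, 59 and 49 against 30, 29.5 and 30 CPM (log2 fold change -0.93, standard error 0.0928, adjusted p = 0.000157), Cyp1b1 37.6, 53.3 and 55 against 22.1, 31.8 and 29.1 CPM (-0.81, adjusted p = 0.00664, and 0.146 in the fit of 12 WT libraries), Tiparp 135, 128 and 117 against 87.8, 81.3 and 82.2 CPM (-0.59, adjusted p = 0.00025), and Ido2 fell by 1.06. Ahr itself rose (19.4 to 25.8 CPM, 0.43, adjusted p = 0.0354), a call lost without LPS replicate 2 (0.0534), LPS replicate 3 (0.0839), LPS+CCM replicate 1 (0.0931) and LPS+CCM replicate 2 (0.153), and Cyp1a1 was too low to be tested.

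Of 20 tested clock genes, 1 was higher and 1 lower, with a median of -0.02. Arntl, the gene of BMAL1, was at 10.2, 8.08 and 9.34 CPM with LPS and 12.9, 11.5 and 12.5 CPM with LPS+CCM (log2 fold change 0.43, standard error 0.12, adjusted p = 0.0441), a call lost without LPS replicate 2 or 3 or LPS+CCM replicate 1, 2 or 3 (adjusted p = 0.0832 to 0.165) and in the fit of 12 WT libraries (0.0745). Cry1, a repressor of BMAL1-CLOCK, was at 26.3, 28.3 and 25.4 and 21.9, 20.7 and 20.8 CPM (-0.33, adjusted p = 0.0134), lost without LPS replicate 2 (0.0698) and LPS+CCM replicate 2 (0.0597). The targets Per1 (-0.13), Per2 (0.34), Nr1d1 (-0.19), Nr1d2 (-0.04) and Dbp (-0.09) were not called, with standard errors of 0.0839 to 0.256, Dbp and Per2 being below 3 CPM. Alpha-arrestins other than Arrdc3 were not called (Arrdc1 0.05, Arrdc2 0.41, Arrdc4 -0.14), although Arrdc2 and Arrdc4 were with the block (adjusted p = 0.0232 and 0.0375). The related Txnip was lower (-0.46, adjusted p = 0.0447), a call lost without LPS replicate 2 or 3 or LPS+CCM replicate 1 or 3 (adjusted p = 0.104 to 0.138), with total counts (0.0751) and in the fit of 12 WT libraries (0.241).

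Of 25 cholesterol synthesis genes, Cyp51 (-0.22) and Sc5d (-0.23) were lower, 8.0% of the list beside 7.78% of all genes tested. Cyp51 was lost without LPS replicate 2 or 3 or LPS+CCM replicate 2 or 3 (adjusted p = 0.061 to 0.0854) and Sc5d without LPS replicate 2 or 3 or LPS+CCM replicate 1 or 3 (adjusted p = 0.0621 to 0.107), and both with total counts (0.0866 and 0.112). Sqle (0.00) and Hmgcs1 (-0.04) were not called. Of 17 genes in the list of LXR targets, 2 rose (11.8%) and 1 fell (5.88%), beside 4.15% and 7.78% of all genes tested. The share called, with Ch25h included, was 17.6%, beside 11.9%. Abca1, the cholesterol efflux pump, rose (242, 219 and 228 to 302, 307 and 315 CPM, 0.43, adjusted p = 0.000337) with Scd2 (0.66). The listed gene that fell, Ch25h (-0.81), encodes an interferon-induced hydroxylase. Whether its fall is related to LXR was not tested. The number of LXR targets higher was 4 without LPS+CCM replicate 1 and 5 with the block. Of 18 chaperone genes 4 were higher (9 with the block). That is 22.2% of the list called, beside 11.9% of all genes tested. Hsph1 had 53.5, 61.9 and 61.5 against 77.2, 86.8 and 83.4 CPM (0.49, adjusted p = 0.00119). Bag3 (0.26) was lost without LPS replicate 2 or LPS+CCM replicate 3 (adjusted p = 0.0551 to 0.066) and Hspa1a (0.49), which has a near-identical copy in Hspa1b, without LPS replicate 1, 2 or 3 or LPS+CCM replicate 2 or 3 (adjusted p = 0.055 to 0.0896) and in the fit of 12 WT libraries (0.0735). The count was 1 without LPS replicate 2 or LPS+CCM replicate 3 and 2 without LPS replicate 1 or LPS+CCM replicate 2. Of 23 genes of the unfolded protein and amino acid stress responses, 3 fell, among them Hspa5 (1141 to 868 CPM, -0.39, adjusted p = 0.00799), and it alone was lower without LPS replicate 2, LPS+CCM replicate 1 or LPS+CCM replicate 3. Atf4 (0.10), Ddit3 (-0.19) and Asns (-0.02) were not called, although Atf4 was with the block (adjusted p = 0.0472).

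Of 24 nuclear transport genes, 4 rose and 3 fell (9 and 6 with the block). The share called was 29.2%, beside 11.9% of all genes tested. The exportins Xpo7 (0.23) and Xpot (0.19) and Tnpo2 (0.20) were higher, but each lost its call in DESeq2 (0.0626, 0.0708 and 0.0629) and without several libraries, and Xpo1 was the 1 gene higher without LPS replicate 2 or 3 or LPS+CCM replicate 1 or 2. The importin Kpna3 fell from 366, 332 and 327 to 239, 210 and 222 CPM (-0.60, adjusted p = 0.000204) and Ran fell (-0.24). Of 26 cell cycle genes, Cdkn1a, which encodes the inhibitor p21, had 881, 768 and 700 against 480, 396 and 381 CPM (log2 fold change -0.89, standard error 0.1, adjusted p = 0.000296), Ccnd2 fell (-0.61, but with an adjusted p of 0.0792 in the fit of 12 WT libraries), and E2f1 rose (0.48, adjusted p = 0.0134) except without LPS+CCM replicate 2 (0.0748). Of the cell cycle genes 15.4% were called, beside 11.9% of all genes tested. Without LPS+CCM replicate 1 there were 3 cell cycle genes higher, and the block gave 6 higher and 6 lower. Mki67 (-0.20), Top2a (0.21) and Cdk1 (0.08) were not called, although Mki67 and Top2a were with the block (adjusted p = 0.00122 and 0.00864). None of 12 transcripts encoded by mitochondrial DNA was called, and 0 of them had an unadjusted p under 0.05 in edgeR, with a median of -0.01.

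By length-scaled level, the most abundant genes that fell were Ccl5, B2m, Ccl3, Acod1 and Actb, and the most abundant that rose were Hmox1, Hspa8, Pkm, Sirpa and Csf1r. Actb, cytoplasmic actin, had 5417, 5654 and 5977 CPM with LPS and 4571, 4623 and 4619 CPM with LPS+CCM (log2 fold change -0.30, standard error 0.0448, adjusted p = 0.00197). Csf1r, the MCSF receptor on which these cultures depend, had 1627, 1684 and 1616 against 1996, 2000 and 1908 CPM (log2 fold change 0.27, standard error 0.0414, adjusted p = 0.00216). The groups did not overlap for either gene. Sirpa, the inhibitory receptor for CD47 (0.19, adjusted p = 0.0216), lost its call without LPS replicate 1 (0.0703), LPS replicate 2 (0.053), LPS+CCM replicate 2 (0.0927) and LPS+CCM replicate 3 (0.0611), and Hspa8 (0.19, adjusted p = 0.0233) without LPS replicate 1 (0.0736), LPS replicate 2 (0.0692), LPS+CCM replicate 2 (0.098) and LPS+CCM replicate 3 (0.0743).

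Counts of list members also moved with the scaling and the fit. With total counts, 11.3% of all genes tested were called higher and 5.4% lower, beside 4.15% and 7.78% in the main fit. In that setting 12 nuclear transport genes, 9 chaperones, 5 LXR targets, 5 eicosanoid genes and 3 inflammasome genes were higher. The part of that general shift in the list counts was not tested. The number lower was then 2 for chemoattractant receptors, 2 for phagocytic receptors, 1 for amino acid genes and 0 for lysosomal, cholesterol synthesis and NADPH oxidase and engulfment genes. No filter beyond 1 count gave 5 phagocytic receptors higher, 3 eicosanoid genes lower, and 3 cell cycle genes higher and 5 lower. It called 3.19% of all its genes higher and 5.11% lower. RLE size factors and DESeq2 each gave 4 lysosomal and 3 NADPH oxidase and engulfment genes lower. Voom gave 5 of each lower. Of all genes tested, RLE size factors, DESeq2 and voom called 8.24%, 7.98% and 8.56% lower in that order. With DESeq2 1 nuclear transport gene was higher. In the fit of 12 WT libraries 3 phagocytic receptors and 1 each of the amino acid, stress response, cell cycle and phosphatase and decay genes were lower, and 0 clock genes were higher. The lists of interferon, antiviral, GBP and IRG, chemokine, cytokine, antigen presentation and costimulatory genes stayed within 1.5 times of their counts of lower members in these fits.

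Whether the change by CCM depended on LPS was tested as an interaction in the 12 WT libraries, 6 of which are those above. Of 14747 genes, 308 were called (2.09%), 239 with a more negative change under LPS (1.62%) and 69 with a more positive one (0.468%). With total counts as the scaling the split turned to 117 and 230, and that scaling moved the median interaction of all genes from 0.015 to 0.113. The count depended on single libraries. It was 200 without vehicle replicate 2, 203, 204 and 181 without CCM replicates 1, 2 and 3, 186 and 158 without LPS replicates 1 and 2, and 152 and 149 without LPS+CCM replicates 2 and 3, and the replicate block gave 548. Of the 58 named genes and list members with an interaction call that are described, 26 were called without any 1 library, and those are described first.

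Dok7 had 2.81, 2.71 and 2.72 CPM with vehicle and 2.9, 2.19 and 2.26 CPM with CCM alone, a log2 fold change of -0.14 beside -1.75 under LPS (interaction -1.61, standard error 0.284, adjusted p = 0.01). Ccrl2 was at 19.3, 15.3 and 19.2 and 21.9, 19 and 21.6 CPM without LPS (0.24 beside -0.92, interaction -1.15, adjusted p = 0.0024). Il15 was at 10.9, 9.85 and 8.7 and 8.83, 9.09 and 8.77 CPM (-0.11 beside -1.18, interaction -1.07, adjusted p = 0.00274). In these genes the lower level with CCM was seen with LPS and the libraries without LPS lay close together. The receptors Tlr3 (0.12 beside -0.81), Tlr7 (0.18 beside -0.43) and Tlr8 (0.35 beside -0.24), the nucleic acid sensors and nucleases Ifih1 (-0.01 beside -0.73) and Isg20 (0.26 beside -0.82), the antigen presentation genes Tap1 (0.08 beside -0.50) and Nlrc5 (0.16 beside -0.45), and Cd274 (0.15 beside -0.42), Cd83 (-0.12 beside -0.98) and Cdkn1a (-0.20 beside -0.89) had negative interactions too. Several of these, such as Tlr8 and Isg20, had a positive fold change without LPS, which forms part of their interaction. Ifih1, Cd83 and Cdkn1a had a negative one there. By list, the interaction was called negative for 4 of 18 GBP and IRG genes, 4 of 18 antigen presentation genes and 3 of 30 antiviral genes. It was so for 3 of 14 costimulatory genes, 3 of 23 LPS receptors and adaptors, 2 of 24 cytokines and 1 of 22 chemokines. The counts were 2 of 10 for nitric oxide, arginine and itaconate genes and 2 of 14 for interferon signal factors. The NF-kB and the inflammasome lists each had 2 of 17. The other lists had at most 1 such member each. Over all genes in this test the share was 1.62%. The remaining strongest negative interactions, those of Phf11c (0.53 beside -0.91), Iigp1 (0.34 beside -1.08) and Kdr (-0.17 beside -1.46), lost their calls without vehicle replicate 1 or 2 or CCM replicate 2 or 3 or LPS replicate 1, 2 or 3 or LPS+CCM replicate 2 or 3 (adjusted p = 0.0509 to 0.0867), vehicle replicate 1 or CCM replicate 3 (adjusted p = 0.0549 to 0.109) and vehicle replicate 2 or CCM replicate 2 or 3 or LPS replicate 1, 2 or 3 or LPS+CCM replicate 2 or 3 (adjusted p = 0.0544 to 0.0805).

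Among positive interactions, Glul was at 250, 274 and 276 CPM with vehicle and 238, 278 and 259 CPM with CCM alone (-0.02 beside 0.76, interaction 0.78, standard error 0.111, adjusted p = 0.00332). Its mean with LPS alone was 64.5 CPM. Slc16a6 was at 17.2, 19.7 and 21.7 and 31.5, 28.5 and 30.1 CPM without LPS (0.64 beside 1.5, interaction 0.86, adjusted p = 0.00658), so that CCM had a positive fold change in both settings and a larger one under LPS. Snx24 (0.07 beside 0.93), Kcnk13 (0.03 beside 0.89) and the cholesterol synthesis gene Sqle (-0.45 beside 0.00) had positive interactions too. The strongest were those of Ska3, Fam216a, Hdac9, Clspn and Hspa1a (1.31 to 1.19), of which Hdac9 was not called under LPS (0.49). These calls were lost without vehicle replicate 1 or 2 or CCM replicate 1, 2 or 3 or LPS replicate 1 or 3 or LPS+CCM replicate 2 or 3 (adjusted p = 0.0522 to 0.0934) for Ska3, any 1 of the 12 libraries (adjusted p = 0.0507 to 0.119) for Fam216a, vehicle replicate 1 or 2 or CCM replicate 1, 2 or 3 or LPS replicate 1 or 3 or LPS+CCM replicate 2 or 3 (adjusted p = 0.0622 to 0.0917) for Hdac9, vehicle replicate 2 or CCM replicate 1 or 3 or LPS replicate 1, 2 or 3 or LPS+CCM replicate 2 or 3 (adjusted p = 0.0512 to 0.0851) for Clspn and vehicle replicate 2 or 3 or CCM replicate 1, 2 or 3 or LPS replicate 1, 2 or 3 or LPS+CCM replicate 2 or 3 (adjusted p = 0.0675 to 0.102) for Hspa1a. Arrdc3 was at 34.1, 45.1 and 42 and 81, 82.6 and 75.5 CPM without LPS (1.0 beside 1.25), with an interaction of 0.25 (standard error 0.15) that was not called. For Hmox1 (0.60 beside 0.49) the interaction was -0.11 (standard error 0.155) and not called either. Many strongly induced genes were near 0 without LPS. Cxcl10 was at 1.25, 2.08 and 0.763 CPM with vehicle and 0.368, 0.792 and 0.861 CPM with CCM alone, a change of -0.90 (standard error 0.363) beside -1.18, and its interaction of -0.28 (standard error 0.404) was not called.

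The same treatments in Bmal1-KO macrophages gave 12 further libraries, and the genotype test compares them with the 6 WT libraries above. The genotype by CCM interaction under LPS was called for 0 of 14546 genes (0.0%) in edgeR and for 0 in DESeq2, and 72 and 92 genes had an unadjusted p under 0.05. In edgeR that number was 187 without KO replicate 6, 245 with the replicate block and 578 with no filter beyond 1 count. The number called was 0 in each. KO replicate 6 had the lowest Ptgs2 with LPS, 514 CPM against 1343 to 1973 CPM in the other 5 libraries. The biological coefficient of variation was 0.276 in this fit and 0.078 in that of the 6 WT libraries, and a p above the threshold does not show that the genotypes respond alike. Cxcl10 was at 1322 ± 174 and 635 ± 61.6 CPM (SD, n = 6) with LPS and with LPS+CCM in KO cells, a log2 fold change of -1.07 (standard error 0.106) beside -1.18 in WT cells. For Il12b the values were 417 ± 196 and 189 ± 87.9 CPM (-1.15, standard error 0.363), for Ptgs2 1388 ± 482 and 619 ± 206 CPM (-1.18, standard error 0.26) and for Arrdc3 8.02 ± 2.67 and 19.2 ± 7.19 CPM (1.24, standard error 0.256). The difference between genotypes was 0.07 with a standard error of 0.621 for Il12b and 0.24 with a standard error of 0.328 for Dok7. List medians in KO cells were -0.76 for GBP and IRG genes (-0.60 in WT cells), -0.52 for cytokines (-0.69), -0.43 for antiviral genes (-0.46), -0.02 for antigen presentation (-0.24) and 0.22 for glycolysis (0.12).

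**Figure D5:**
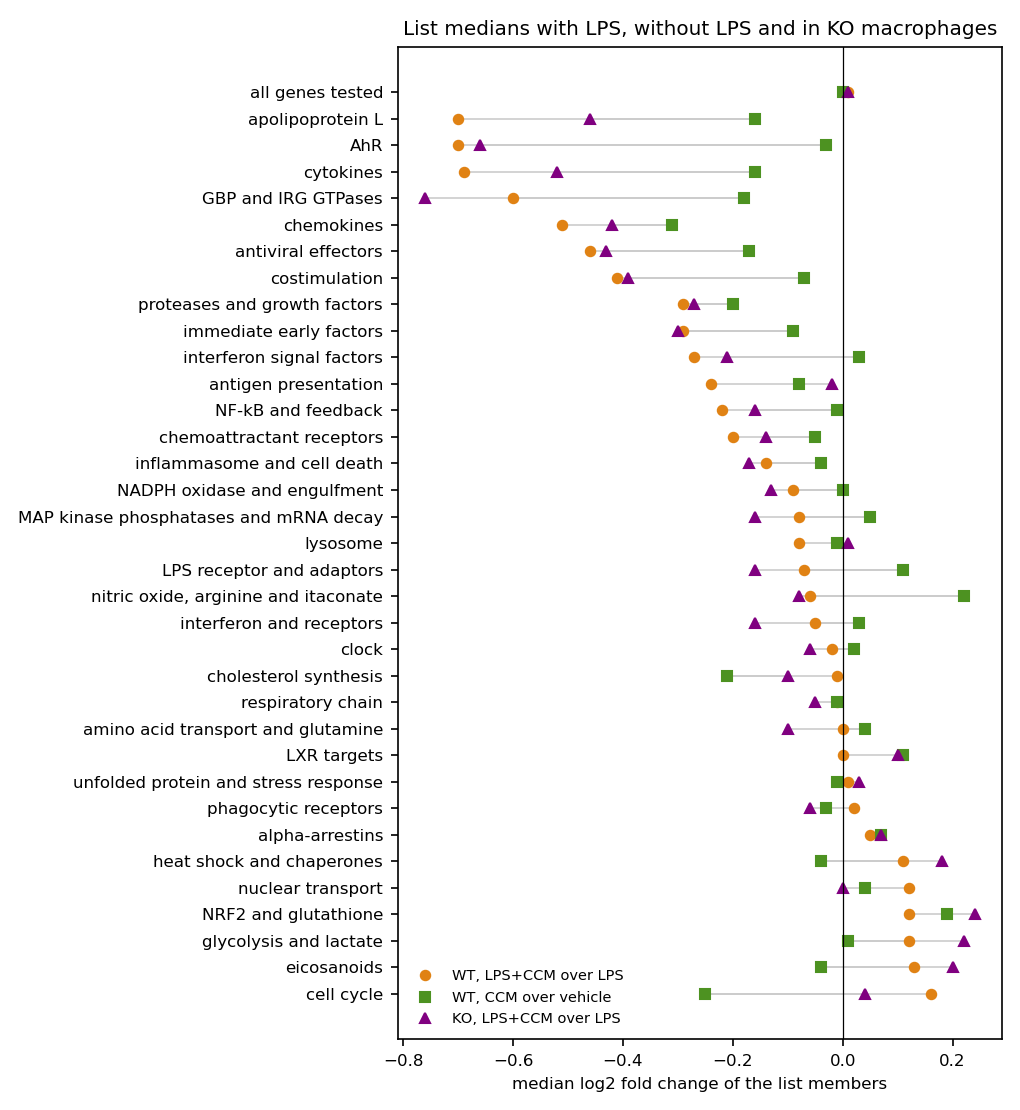
Median log2 fold change of each list's tested members for CCM under LPS in WT cells (orange circles), CCM without LPS in WT cells (green squares) and CCM under LPS in KO cells (purple triangles), with all genes tested at the top. For the GBP and IRG list the 3 medians are -0.60, -0.18 and -0.76, and for antigen presentation -0.24, -0.08 and -0.02.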

How the data were processed

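RNA from 36 BMDM cultures was sequenced, and the 6 of WT cells with LPS or LPS+CCM are the comparison here. Per the labels and the study's methods, the authors trimmed reads with fastp, aligned them to mm10 with HISAT2 2.0.5 and deposited featureCounts 1.5.0-p3 counts, raw and whole, for 54532 genes. The strand setting is not given in the sources used here, so antisense or overlapping genes cannot be told apart. The deposited annotation columns gave gene names, lengths and positions.

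Counts were fitted with edgeR 4.0.16 (R 4.3.3), using filterByExpr, TMM and the quasi-likelihood test, with the 2 groups alone. Interactions were fitted in 12 WT libraries and in 18 libraries with LPS. P-values were adjusted by Benjamini-Hochberg over all tested genes, and 0.05 was the threshold. The study counts its replicates as mice, but no source ties a replicate number to an animal. Same-numbered libraries of the 2 groups deviated together in all 3 pairs (r = 0.151 to 0.36). The calls come from the fit without a block, and the fit blocked on that number is given where it changes a call. Named genes were the 15 that changed most in each direction, with a mean log2 CPM of 1 or more and 1 direction across all replicate pairs, leaving out predicted genes, the 5 strongest interactions in each direction, the 5 most abundant called genes in each direction by level per length, and members of 34 lists (630 of 655 genes tested). Libraries were assigned to groups by their labels, but the comparison described, the lists and the markers were chosen with earlier results of these data known. Promoter motifs were counted on both strands with Python 3.11.15, and figures drawn with matplotlib 3.10.9. The alternatives were RLE, upper-quartile or total-count scaling, no filter, DESeq2 1.42.0, limma 3.58.1 voom, a replicate block, fits of 12 WT or all 36 libraries, and each library left out. Leaving out vehicle and CCM libraries was added after seeing the data. For promoter motifs, the alternative was the 250 bases before the start alone. Scripts were tested on simulated data. Some genes of the lists are not reported here by name.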

Additional observations from a re-analysis of the deposited data

Results flagged for a closer look

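For 58 of the genes named and list members the effect of CCM under LPS differed from its effect without LPS by a called interaction term, given here as the log2 difference of the 2 fold changes, negative where the change under LPS was the more negative. No explanation was tested. The negative interactions that were called without any 1 of the 12 WT libraries were those of Dok7 (-1.61), Ccrl2 (-1.15), Isg20 (-1.09), Il15 (-1.07), Tlr3 (-0.93), Cd83 (-0.87), Ifih1 (-0.72), Cdkn1a (-0.70), Kpna3 (-0.68), Mertk (-0.65), Irgm2 (-0.63), Nlrc5 (-0.62), Tlr7 (-0.61), Tlr8 (-0.60), Tap1 (-0.58), Irgm1 (-0.58), Sat1 (-0.57), Cd274 (-0.57), Casp8 (-0.48) and Samhd1 (-0.40). The positive ones of that kind were those of Slc16a6 (0.86), Snx24 (0.86), Kcnk13 (0.86), Glul (0.78), Scarb1 (0.48) and Sqle (0.45). The remaining 32 lost their call without at least 1 library, and none of the 58 had the opposite sign in any alternative. On the negative side these were Phf11c (-1.44), Iigp1 (-1.41), Kdr (-1.30), Slc7a11 (-0.83), Ccl3 (-0.78), Il18 (-0.74), Irf1 (-0.60), Slamf7 (-0.58), Igtp (-0.57), Rel (-0.50), Aim2 (-0.50), Tyk2 (-0.40), Gch1 (-0.40), Stat3 (-0.40), Nfkb2 (-0.38), Psmb9 (-0.37) and Tap2 (-0.37). On the positive side they were Ska3 (1.31), Fam216a (1.26), Hdac9 (1.23), Clspn (1.21), Hspa1a (1.19), Scd2 (0.88), Ccnd1 (0.77), Mcm5 (0.71), E2f1 (0.60), Hmgn1 (0.53), Tpi1 (0.53), Fasn (0.44), Xpo1 (0.35), Bag3 (0.34) and Sirpa (0.29). Some of these calls were also lost with all 12 libraries kept. Total counts as the scaling ended those of Tyk2, Stat3, Irf1, Il18, Nfkb2, Rel, Gch1, Tap2, Psmb9, Slamf7, Slc7a11 and Aim2. RLE size factors ended those of Sirpa, Bag3 and E2f1, and no filter beyond 1 count that of Fam216a.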

How the results depend on the processing

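Of 259 named genes and called list members, 158 kept their call in every alternative except possibly the fit of all 36 libraries, 8 of them there too, and 85 lost it without at least 1 library. None changed sign while called. For the CCM effect under LPS, the replicate block gave 3220 calls (1417 higher, 1803 lower) and the fit of 36 libraries 17 (6 higher, 11 lower). Total counts gave 1539 higher and 733 lower, which turns the majority direction. Leaving out 1 library gave 893 to 1352 calls, 216 to 462 higher and 677 to 918 lower. For the LPS by CCM interaction, no filter gave 721 (301 positive, 420 negative), DESeq2 688 (123 and 565), the replicate block 548 (150 and 398), and total counts 230 positive and 117 negative. Leaving out 1 library gave 149 to 295, 18 to 69 positive and 127 to 226 negative. The other alternatives stayed within 1.5 times. With promoters cut to the 250 bases before the start, 11 motif shares left the 95% interval of the main window. The other 22 stayed inside it. The block changed no named call under LPS other than by adding calls. Ifnb1, Npas4 and Gbp2b lay near 1 CPM and rest on few reads. The causes were not tested. A fit without 1 library also has fewer samples, and the part of that in the lost calls was not tested either.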
